A study of Mus musculus with 2 samples.

Results

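The vacuolar proton pump (V-ATPase) and the carbonic anhydrases of the mouse incisor were examined as 1 group of genes. The group held every probe of the array whose annotated gene symbol begins with Atp6v or Atp6ap, or is Car followed by a number and at most 1 letter. This rule found 35 genes on 48 probes, out of 16593 named genes on 23978 probes, and it used no measured value. There were 23 V-ATPase genes on 31 probes and 12 carbonic anhydrase genes on 17 probes. Atp6v0c, Atp6ap1l, Car1, Car5a, Car8 and Car10 were found by no probe under the rule and were not analysed here.

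RNA was taken at 10 wk from C57BL/6 mice, from the stem cell region at the root of the lower incisor known as the cervical loop (CL). The KO sample had the genotype MED1 fl/fl K14Cre, in which Cre under the keratin 14 promoter deletes the Mediator subunit gene Med1 from epithelial cells. The sample labelled WT had the genotype MED1 fl/fl, with the same floxed alleles and no Cre, so neither sample was free of the floxed allele. Each sample was dissected tissue of 3 mice combined, in which cells outside the keratin 14 lineage keep Med1. The sample titles and the stage name the CL, whereas the general dissection text describes tissue that makes hair in the KO and its counterpart in littermates. Illumina MouseRef-8 bead arrays gave 1 column of values per genotype. The design text states n = 3, and whether a column averages several arrays is not said in the sources used here. Without replicates no test between the genotypes was possible and every difference below is between 2 columns, called the KO array and the WT array, with no error between animals.

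The V-ATPase is a rotary proton pump. Its V1 sector lies in the cytosol and splits ATP, its V0 sector lies in the membrane and carries the protons, and accessory proteins assist its assembly and sorting. It acidifies lysosomes and other organelles in nearly all cells, and at the surface of osteoclasts and of maturation-stage ameloblasts, the enamel-forming cells in their later phase, it exports acid. Carbonic anhydrases convert CO2 and water to bicarbonate and a proton, and in developing enamel they help to buffer the acid released as mineral grows.

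An intensity is the brightness of a probe on a linear scale, and a probe was called detected when its deposited detection p-value was under 0.01 on at least 1 array. Of all 25697 probes, 11742 were detected, 10656 of them on both arrays, and the median non-normalized intensity was 115.7 on the KO array and 112.4 on the WT array. The log2 ratio is KO minus WT after background correction and quantile normalization, with each gene read by its brightest detected probe. Where a gene had several detected probes, the median gap between the ratios of its 2 brightest was 0.20 on the log2 scale, and the gap was at most 0.71 in 95% of such genes (2007 in all). The SD of a single probe, from the mean square of these differences, was 0.25, and it covers probe error, not variation between animals. The ratios of the middle 95% of the 8378 named genes detected lay between -0.62 and 0.61. Med1 itself had 172.9 intensity units on the KO array and 245.9 on the WT array, a log2 ratio of -0.80, and the ratio was as low in 83 genes. The other Med1 probes were not detected.

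Both families were expressed in the CL, and no member differed by 1.5-fold between the arrays. Of the 35 genes, 24 were detected, all of them on both arrays, and 11 were not detected on either. The V-ATPase genes lay slightly to the KO side, with 15 of 18 detected genes above a ratio of 0 and a median of 0.11 (-0.05 when the arrays were scaled by their medians), whereas the carbonic anhydrases lay to the WT side, with 5 of 6 below 0 and a median of -0.17 (-0.09 in the authors' normalized values, which have no background correction). Over all 8378 genes, 50.1% had a ratio above 0 and the median was 0.00. None of the 24 members reached 1.5-fold higher in KO, beside 3.02% of all genes, and none reached 1.5-fold lower, beside 2.92% of all genes. No member lay outside the middle 95% of all ratios. The ratio was smaller than the SD of a probe in 12 of the 18 V-ATPase genes and in 4 of the 6 carbonic anhydrases, as it was in 5555 of all genes.

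The side on which the V-ATPase genes lay depended on the scaling. In the non-normalized intensities, 8 of the 18 were brighter on the KO array (44.4%), beside 32.1% of all genes. When the arrays were scaled by their medians in place of quantiles, the median of all genes moved to -0.13. The V-ATPase median was then -0.05, which is 0.08 above that of all genes, with 8 genes above 0 and 10 below, and 12 of the 18 lay above the median of all genes. The carbonic anhydrase median was -0.27 under that scaling, again with 1 gene above 0 and 5 below.

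**Figure D1:**
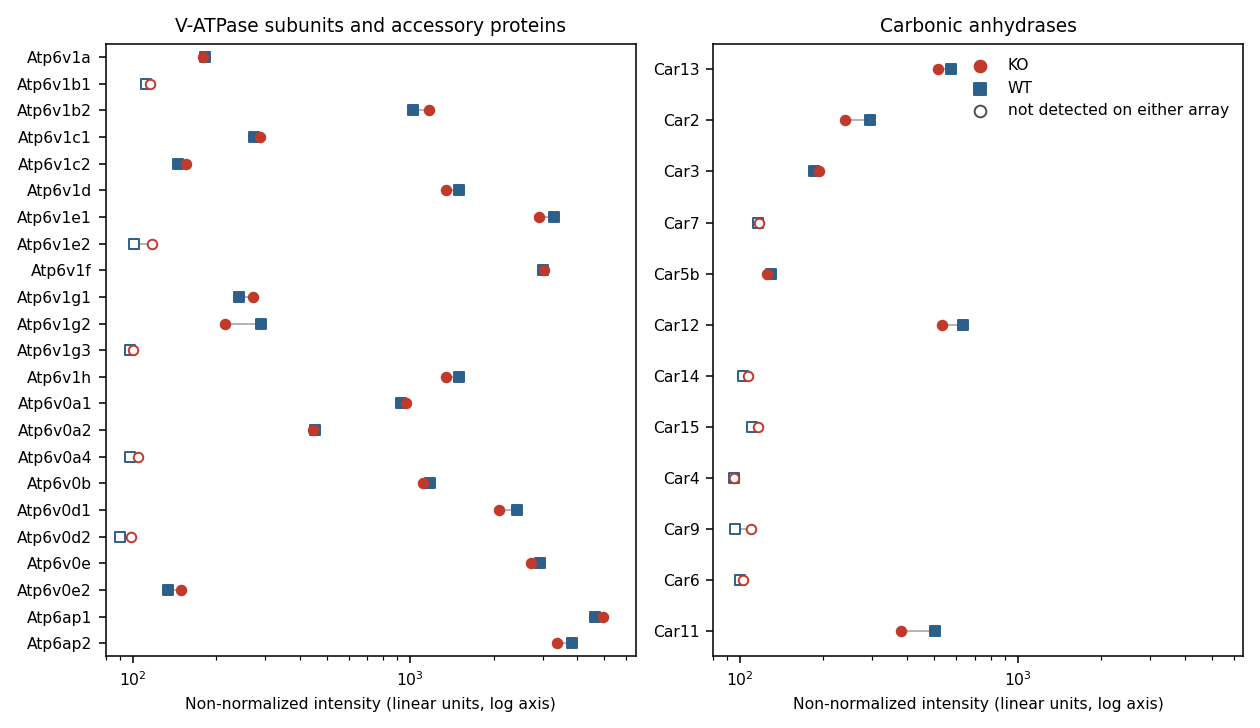
Non-normalized intensity of each V-ATPase gene (left) and each carbonic anhydrase gene (right) on the KO array (red circles) and the WT array (blue squares), with intensity on a log axis and 1 probe per gene. Open symbols mark the 11 genes not detected on either array. The symbols of a gene lie close together, and the widest gap among detected genes is that of Atp6v1g2, at 215.2 in KO and 289.1 in WT.

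The promoters of the V-ATPase genes are shown for a motif known from lysosomal genes. CACGTG is the core of the sites bound by TFEB and related factors, which control lysosomal genes, and it reads the same on both strands. RefSeq windows of build GRCm38.p6, from 250 bases before to 50 after an annotated start, were found for 26 of the 35 genes. CACGTG stood in 4 of the 14 windows of detected V-ATPase genes (28.6%), in none of the 4 windows of undetected V-ATPase genes, in none of the 4 windows of detected carbonic anhydrases and in 1 of the 8 windows of undetected ones, that of Car6. Of all 32851 windows, 7.15% held it. The longer form TCACGTGA, which contains the core and was counted on both strands, stood in 3 of the 14 windows of detected V-ATPase genes and in 0.974% of all windows. A match describes letters in a window and shows no binding. The core contains the dinucleotide CpG, and the shares were not compared with those in windows of similar CpG content or of other detected genes. The stretches that hold the core, printed 5′ to 3′ along the gene's strand with the core in capitals and 20 bases on each side, came from Atp6v0b at chr4:117887322-117887385 (minus strand), Atp6v0d1 at chr8:105566042-105566087 (minus), Atp6v0e at chr17:26676379-26676424 (plus) and Atp6v1a at chr16:44139365-44139410 (minus).
Atp6v0b: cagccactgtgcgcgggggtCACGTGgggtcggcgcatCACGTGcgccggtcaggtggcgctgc
Atp6v0d1: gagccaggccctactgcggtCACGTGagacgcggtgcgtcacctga
Atp6v0e: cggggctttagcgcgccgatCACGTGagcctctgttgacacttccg
Atp6v1a: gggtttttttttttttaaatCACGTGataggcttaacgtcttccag

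Atp6v0b held the core at 2 places, 36 and 18 bases before the start, and neither was part of the longer form. In Atp6v0d1 the core began 3 bases before the start, in Atp6v1a 131 bases before it, and in Atp6v0e it began 3 bases after the first base of the transcript; each of these was part of TCACGTGA. The log2 ratios of these genes were 0.10 for Atp6v0b, -0.05 for Atp6v0d1, 0.07 for Atp6v0e and 0.04 for Atp6v1a, so the 4 detected V-ATPase genes with the core lay within the SD of a probe of 0. The windows of detected V-ATPase genes held a median of 17.5 CpG dinucleotides, those of undetected V-ATPase genes 2.5, and all windows 7. The carbonic anhydrases had the other order, with 11.5 in windows of detected genes and 14.0 in those of undetected genes. Tfe3, which encodes a factor of the TFEB family, was detected at 153.0 on the KO array and 154.5 on the WT array (log2 ratio 0.00), whereas Tfeb and Mitf were not detected.

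Among the V1 subunits, 10 of 13 genes were detected, and 8 of these were above a ratio of 0 under quantile normalization with a median of 0.11. Subunit B forms the ATP-splitting head together with subunit A. Atp6v1b2, the widely used form of subunit B, had 1165.7 intensity units on the KO array and 1027.8 on the WT array. Its log2 ratio of 0.39, or 1.31-fold, was the highest of the V1 genes, and the ratio was as high in 676 genes. Atp6v1a, subunit A, had 179.2 on the KO array and 181.8 on the WT array, a ratio of 0.04. Atp6v1b2 lay beyond the SD of a probe from 0 and Atp6v1a within it, and the difference between their ratios was not tested. Under median scaling Atp6v1b2 was at 0.21, within that SD.

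Of the genes of the stalks, which hold the head still or turn within it, Atp6v1d, Atp6v1f and Atp6v1e1 lay within the SD of a probe of 0. Atp6v1d, the rotating central stalk, had 1350.0 on the KO array and 1497.1 on the WT array (0.02). Atp6v1f, which sits beside it, had 3029.4 on the KO array and 3013.3 on the WT array (0.17). Atp6v1e1, a peripheral stalk subunit, had 2905.5 on the KO array and 3287.1 on the WT array (-0.03). Most of these intensities were lower on the KO array before normalization, and the ratios after it lay close to 0. Atp6v1h, a subunit that regulates coupling of the sectors, had 1343.1 on the KO array and 1493.0 on the WT array (0.01).

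Subunit G of the peripheral stalk gave the widest spread within a subunit. Atp6v1g2, known as the form enriched in neurons, had 215.2 on the KO array and 289.1 on the WT array, so that the KO intensity was 74.4% of WT. Its log2 ratio was -0.55, or 1.46-fold lower in KO, the only member near the 1.5-fold limit, and the ratio was as low in 301 genes. It passed 1.5-fold under median scaling, at -0.66, where the median of all genes was itself at -0.13. In the authors' normalized values Atp6v1g2 was at -0.36. Its other probe was not detected, at 103.6 on the KO array and 97.2 on the WT array. Atp6v1g1, the widely used form, lay on the other side, with 271.0 on the KO array and 242.7 on the WT array (0.34, 1.27-fold). Levels of different probes cannot be set against each other, so the balance of the G forms was not measured.

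Subunit C clamps the sectors together and is released when the pump comes apart. Atp6v1c1 had 287.1 on the KO array and 274.7 on the WT array (0.20). Atp6v1c2, a form known from lung and kidney, had 156.3 on the KO array and 145.8 on the WT array (0.26). Both forms lay on the KO side, near the SD of a probe. The ratio of the dim Atp6v1c2 probe was 0.11 in the authors' values, which have no background correction.

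Among the V0 subunits, 6 of 8 genes were detected, and 5 were above a ratio of 0 with a median of 0.11. Subunit a, the large membrane subunit that directs the pump to its membrane, is encoded by several genes. Atp6v0a1 had 964.2 on the KO array and 929.3 on the WT array (0.23), but its second detected probe, at 126.1 on the KO array and 127.9 on the WT array, gave -0.13. Atp6v0a2, known from the Golgi, had 446.3 on the KO array and 452.4 on the WT array (0.12). Tcirg1, outside the naming rule, encodes the a3 form that osteoclasts use for bone resorption. It was read by 4 probes, and its brightest had 370.3 on the KO array and 391.5 on the WT array, a ratio of 0.03. The other probes of Tcirg1 are not given here, so its side rests on the brightest probe alone. The median of the list of V-ATPase partners that holds Tcirg1 was 0.14 by the brightest probes and 0.29 by the mean over probes.

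Subunit d joins V0 to the central stalk, and Atp6v0d1, its widely used form, was read by 4 detected probes. The brightest had 2087.7 on the KO array and 2430.3 on the WT array (-0.05), and the others gave ratios of 0.08, 0.01 and 0.40. The last of these, at 612.5 on the KO array and 529.9 on the WT array, lay apart from the rest, and the mean of the 4 probes was 0.11. The ratio of this gene thus had no settled sign.

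Atp6v0b, the c'' subunit of the proton-carrying ring, had 1111.6 on the KO array and 1178.2 on the WT array (0.10). Atp6v0e, a small subunit beside the ring, had 2729.0 on the KO array and 2923.1 on the WT array (0.07). Atp6v0e2, its second form, had 150.0 on the KO array and 134.6 on the WT array (0.39, 1.31-fold). That ratio was the joint highest of the group, but it came from a dim probe with a detection p-value of 0.00376 on the WT array and was 0.15 in the authors' values.

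The accessory proteins assist assembly and trafficking of the pump. Atp6ap1 had 4969.1 on the KO array and 4617.0 on the WT array, a log2 ratio of 0.30 (1.23-fold). That ratio was the same in the authors' values but 0.13 under median scaling. Atp6ap2, also known as the prorenin receptor, had 3367.2 on the KO array and 3817.7 on the WT array (0.00), and its 3 other detected probes gave 0.04, 0.02 and -0.13. The 4 probes of Atp6ap2 lay within the SD of a probe of 0.

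**Figure D2:**
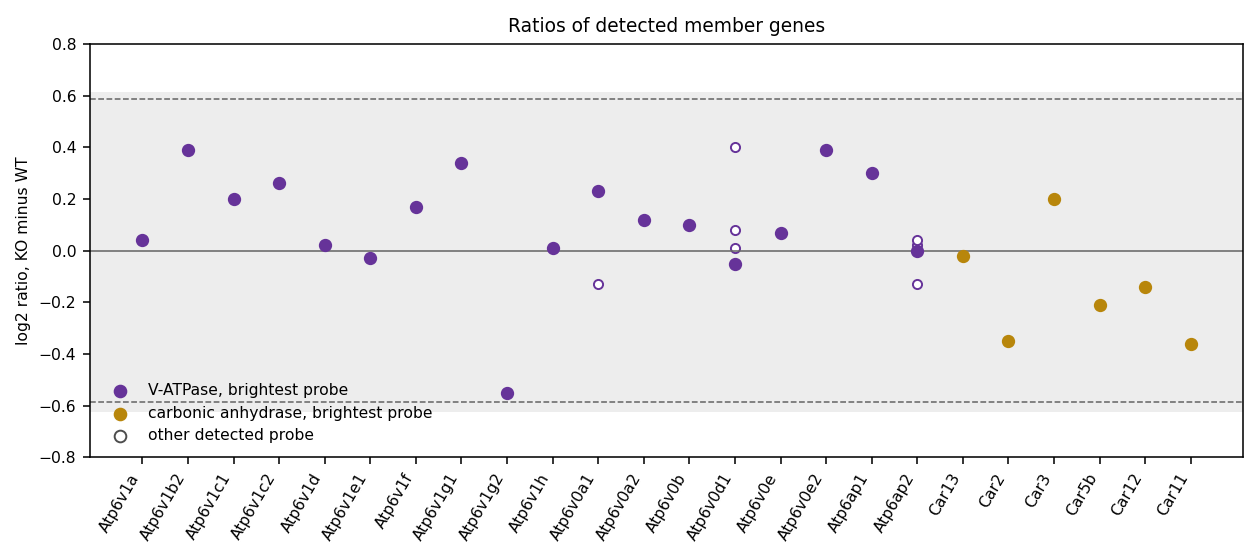
Log2 ratio, KO minus WT, of the 24 detected genes by their brightest probe (filled points), with further detected probes of the same gene as open points. The grey band is the middle 95% of all 8378 genes (-0.62 to 0.61) and the dashed lines mark 1.5-fold. All members lie between the dashed lines, from -0.55 for Atp6v1g2 to 0.39 for Atp6v1b2 and Atp6v0e2.

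The array named more than 1 member gene for 7 V-ATPase subunits. In 5 of them (B, E, G, a and d) at least 1 form was not detected, and in 2 (C and e) all forms were. The undetected forms were Atp6v1b1 and Atp6v0a4, known from acid-secreting cells of the kidney and inner ear, Atp6v1g3, known from the kidney, Atp6v1e2, known from the testis, and Atp6v0d2, known from osteoclasts and the kidney. Their intensities lay between 99.0 and 117.7 on the KO array and between 90.2 and 111.5 on the WT array, against medians over all probes of 115.7 in KO and 112.4 in WT. Their probes were not above the negative controls by the detection rule, so no ratio is given for them. With a looser detection p-value of 0.05, Atp6v1b1 entered with a ratio of 0.03 and Atp6v1e2 with 0.50, the second from 117.7 on the KO array and 101.0 on the WT array, where background correction acts strongly.

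Of the 12 carbonic anhydrases, 6 were detected, and 5 of these had a ratio below 0. Car2, the fast cytosolic enzyme of erythrocytes, osteoclasts and ameloblasts, had 238.8 on the KO array and 294.7 on the WT array. Its log2 ratio was -0.35, or 1.28-fold lower in KO, and it was -0.24 in the authors' values. Its other probe was not detected, at 102.6 on the KO array and 98.4 on the WT array. The ratio was as low in 839 genes.

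The other cytosolic forms did not lie on 1 side. Car3, a slow enzyme abundant in muscle and fat, had 192.9 on the KO array and 184.5 on the WT array (0.20), the only carbonic anhydrase above 0. Car13 had 518.4 on the KO array and 575.7 on the WT array (-0.02). Car7, a cytosolic form known from the brain, was not detected, at 117.4 on the KO array and 116.3 on the WT array.

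Car12, a membrane enzyme whose active site faces outward, had 534.6 on the KO array and 636.3 on the WT array (-0.14). It was the only detected one of 5 membrane-bound forms, and the others, Car4, Car9, Car14 and Car15, were not detected. Car9, a target of the hypoxia response, was read by 3 probes, at 103.6, 109.3 and 99.9 on the KO array and 100.1, 95.7 and 101.8 on the WT array. Car5b, a mitochondrial form, had 125.3 on the KO array and 129.3 on the WT array (-0.21), a dim probe with detection p-values of 0.00501 in KO and 0.00627 in WT, and its ratio was -0.07 in the authors' values. Car6, the secreted form of saliva, was not detected, at 103.0 on the KO array and 100.1 on the WT array.

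Car11 belongs to the carbonic anhydrase related proteins, which lack the zinc-binding residues needed for catalysis. It had 379.7 on the KO array and 503.5 on the WT array, a log2 ratio of -0.36 (1.28-fold lower in KO) and the lowest of the family. In the authors' values it was -0.29, and the ratio was as low in 810 genes. The lowest ratios of the family belonged to Car11, which has no known enzyme activity, and to Car2.

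**Figure D3:**
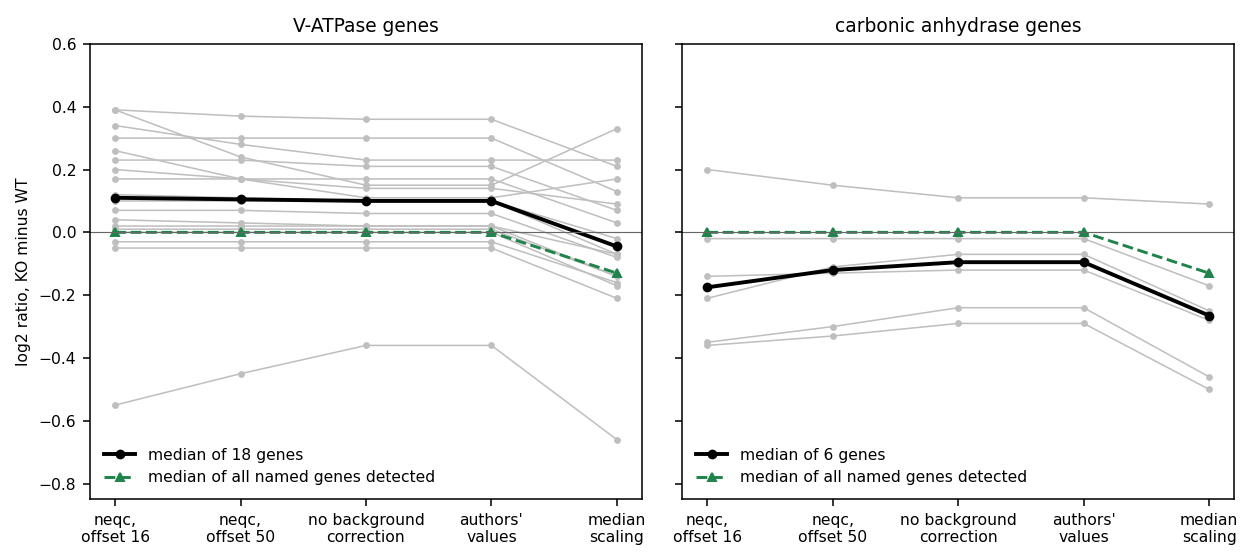
Log2 ratio, KO minus WT, of the 18 detected V-ATPase genes (left) and the 6 detected carbonic anhydrases (right) under 5 ways of processing the same arrays, 1 grey line per gene, with the median of the genes in black and of all 8378 genes in green. Median scaling moves the median of all genes to -0.13 and the V-ATPase median to -0.05, while the carbonic anhydrase median stays below that of all genes in each way shown.

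Genes that work with the pump or with bicarbonate were read as lists. The genes below are outside the naming rule, apart from the undetected Atp6v0d2 in the osteoclast list. Tcirg1 stands in both the partner list and the osteoclast list, and Slc4a1 in both the list of bicarbonate and acid transporters and the erythroid list. Of 9 V-ATPase partners on the array 6 were detected, with 5 above 0 and a median of 0.14 (0.01 under median scaling and 0.29 by the mean over probes). Among the detected partners only Tcirg1 and Oxr1 had several probes. The move to 0.29 thus came from further probes of these genes, whose values are not given here. Oxr1, whose yeast counterpart promotes disassembly of the pump, had 178.6 on the KO array and 256.2 on the WT array (-0.79), the only partner past 1.5-fold, and it was at -0.46 in the authors' values. Rogdi, a homologue of an assembly factor known from yeast, had 315.3 on the KO array and 267.4 on the WT array (0.46). Rnasek, a small protein bound to V0, had 383.0 on the KO array and 347.8 on the WT array (0.32).

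Of 26 bicarbonate and acid transporters 13 were detected, with 8 above 0, 5 below and a median of 0.05 (-0.06 under median scaling). Slc4a2, the anion exchanger AE2, which ameloblasts use to export bicarbonate, had 1417.9 on the KO array and 1442.6 on the WT array (0.15). Clcn3, an endosomal chloride and proton exchanger, had 145.6 on the KO array and 204.6 on the WT array (-0.94), and it was at -0.46 in the authors' values. After the background correction and quantile normalization used here, Slc4a9, seen only on the KO array, was at least 1.51-fold higher there. Slc4a8, seen only on the WT array, was at least 1.57-fold lower in KO. In the authors' values the log2 ratios were smaller, at 0.28 for Slc4a9 and -0.23 for Slc4a8, so the bounds do not hold there. Each bound takes, on the array where the probe was not detected, the higher of its own signal and the lowest signal of a detected probe. The P-type proton pump genes Atp4a, Atp4b and Atp12a were not detected.

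The lysosome list, whose organelle the V-ATPase acidifies, was centred on 0, with 18 of 23 genes detected, 11 above 0, 7 below and a median of 0.01 (-0.12 under median scaling). Lamp1, a lysosomal membrane protein, had 4036.6 on the KO array and 4146.7 on the WT array (0.15), and the protease Ctsb had 2501.6 on the KO array and 2782.5 on the WT array (0.01). The hypoxia response list had 10 of 14 genes detected, 3 above 0, 7 below and a median of -0.09. None of its genes reached 1.5-fold.

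Cells other than dental epithelium can carry both families, and fewer cells of a type cannot be told apart from less RNA per cell in such bulk tissue. Enamel and epithelial markers were detected on both arrays. Amelx, the main enamel matrix protein, was at 22412.7 on the KO array and 22621.8 on the WT array (0.00). These values lay near the highest intensities of the arrays, 25358.6 in KO and 26193.7 in WT. Krt14 was at 13241.5 on the KO array and 14400.6 on the WT array (0.01). Of the enamel epithelium list 8 of 11 genes were detected, with Fam20a (0.65) and Sp6 (0.60) past 1.5-fold by their brightest probes. In the authors' values Fam20a was at 0.61 and Sp6 at 0.57, the latter below 1.5-fold. Both genes have further probes, whose values are not given here. The median of the list was 0.21, but 0.15 by the mean over probes and 0 with a detection p of 0.05 or with all probes. Klk4, a protease of maturation-stage ameloblasts, was dim, at 124.9 on the KO array and 132.6 on the WT array. Slc24a4 and Wdr72, known from the same stage, were not detected. All 6 epithelial markers were detected, with a median of -0.10 and a range of -0.23 to 0.01.

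Of 12 osteoclast markers 5 were detected, with 1 above 0, 4 below, a median of -0.14 and summed intensities of 3119 on the KO array and 3483 on the WT array. Ctsk was detected, at 1221.9 on the KO array and 1511.0 on the WT array, whereas Acp5, Calcr, Dcstamp, Ocstamp and Atp6v0d2 were not. Erythroid markers, relevant to Car2, had 4 of 7 genes detected, 2 on each side of 0 and a median of -0.18. That median was 0.01 with a detection p of 0.05 and -0.02 with all probes. Their summed intensity was 14160 on the KO array and 19380 on the WT array, most of it from Hba-a1, at 13157.9 on the KO array and 18394.4 on the WT array (-0.37). Alas2 was at -0.53, Hbb-bt at 0.01 and Slc4a1 at 0.42, so the list had no common side. The part of erythroid or osteoclast RNA in the Car2 value was not tested.

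Skeletal muscle markers, relevant to Car3, had 11 of 13 genes detected, 8 above 0 and a median of 0.25, with summed intensities of 3375 on the KO array and 3181 on the WT array. Mb had a ratio of 0.77, whereas Tnnt1 was at -0.83 and Actn3 at -0.60. No adipocyte marker of 7 was detected, among them Adipoq and Fabp4. The part of muscle RNA in the Car3 value was not tested.

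Neutrophil markers stood furthest from 0 of the lists. Of 10, 9 were detected, all above 0, 7 were 1.5-fold or more higher in KO and the median was 1.0, with summed intensities of 6378 on the KO array and 3824 on the WT array. Retnlg had the highest ratio of these, 1.60, with 237.3 on the KO array and 137.2 on the WT array. Macrophage markers had 6 of 7 genes detected, 2 above 0, 4 below and a median of -0.15, with summed intensities of 5790 on the KO array and 6987 on the WT array. Both cell types use the V-ATPase, and their part in its median of 0.11 was not tested. Odontoblast and bone markers had 7 of 8 genes detected and a median of 0.09, with summed intensities of 36480 on the KO array and 37500 on the WT array. Much of this came from Bglap, at 24085.4 on the KO array and 23900.0 on the WT array (0.04). As for Amelx, these values lay near the highest intensities of the arrays, 25358.6 in KO and 26193.7 in WT. The part of odontoblast and bone RNA in the member values was not tested. Under median scaling, with all genes at -0.13, the medians were 0.88 for neutrophil, 0.13 for skeletal muscle, 0.01 for odontoblast and bone, -0.23 for epithelial, -0.28 for osteoclast and -0.28 for macrophage markers, and -0.24 for the hypoxia list.

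**Figure D4:**
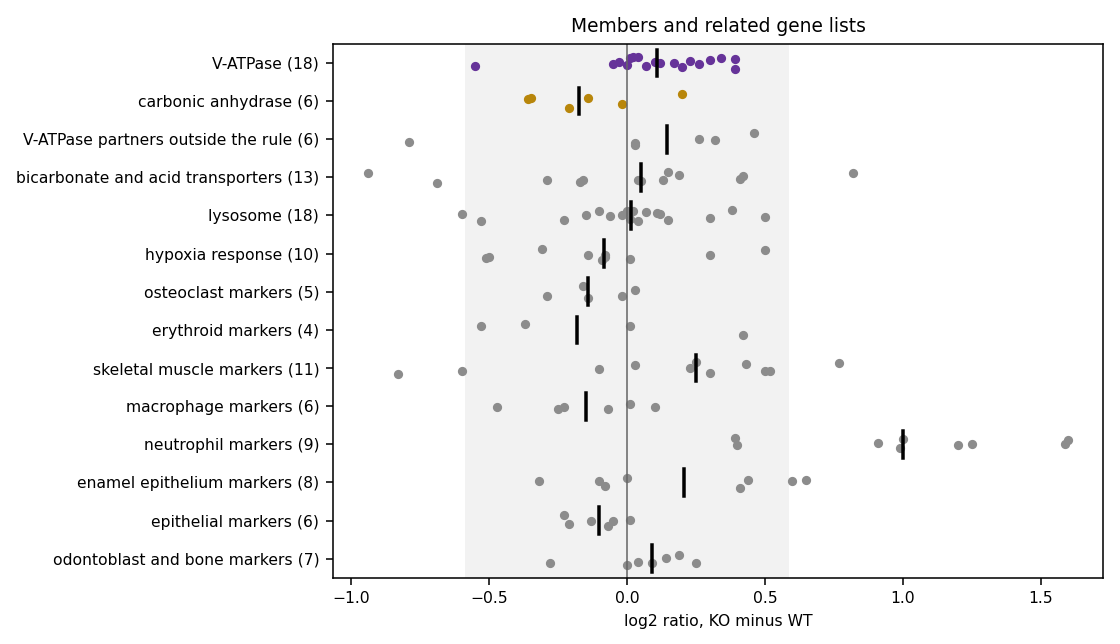
Log2 ratio, KO minus WT, of the detected genes of the V-ATPase, the carbonic anhydrases and 12 related or marker lists, with the number of genes in parentheses, genes detected on 1 array at their measured ratio, the median as a black bar and the grey band within 1.5-fold. The members lie inside the band, and of the lists shown only the neutrophil markers have their median outside it, at 1.0.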

How the data were processed

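Total RNA of the CL was hybridized to Illumina arrays. For each probe the authors deposited a linear intensity, neither background-corrected nor normalized, and a detection p-value against negative control probes, exported from GenomeStudio per the submitters' notes. The authors also deposited normalized intensities, which matched quantile normalization without background correction to within 1.43 units in KO and 2.10 in WT. Intensity columns were matched to samples by name. The detection p-value columns carry no sample name, and each was read with the intensity column on its left.

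Non-normalized intensities were processed with neqc of limma (version 3.58.1, R 4.3.3), with normexp background correction, an offset of 16, quantile normalization and log2, and the steps were tested on simulated data. The correction widens the ratios of dim probes. A probe seen on 1 array only bounds a ratio, with the lowest detected value (5.15 in KO, 5.26 in WT on the log2 scale) as floor. Probes were named by the platform annotation, and the 1719 probes without a symbol were left out. Array files state no genome build, and coordinates are those of the RefSeq promoter windows.

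All members were named, with at most 3 genes of each related list chosen for the largest ratios and other list genes picked as examples with their values known. Members and lists were chosen with earlier results of these data known. With 1 sample per genotype no test was run, and genes were counted at 1.5-fold, the limit in the study's methods. Alternatives were the authors' values, no background correction, an offset of 50, median scaling, a detection p of 0.05, detection on both arrays, all probes, the mean over probes and a 2-fold limit. The number of arrays limits the precision.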

Additional observations from a re-analysis of the deposited data

How the results depend on the processing

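No paired analysis was possible because with 1 sample per genotype there is no test. None of the 24 detected genes moved by more than the SD of a probe under any alternative, and the largest shift was 0.24, with quantile-normalized intensities that had no background correction. Median scaling turned the sign of the V-ATPase median (-0.05, against a median of all genes of -0.13) and of 7 genes (Atp6ap2, at 0.00 before, among them), and brought the V-ATPase genes at 1.5-fold lower to 1, Atp6v1g2. The mean over probes turned the sign of 2 genes, Atp6v0d1 and Atp6ap2 (-0.02, and 0.00 by its brightest probe). With all probes, detected or not, the carbonic anhydrase median was -0.04 over 12 genes, the added genes being at background. Counts over all genes moved most. There were 253 genes at 1.5-fold higher in KO, but 23 both in the authors' values and with no background correction. That count was 59 with an offset of 50, 171 under median scaling, 132 when detected on both arrays and 23 at a 2-fold limit. There were 245 genes at 1.5-fold lower, but 36 both in the authors' values and with no background correction, 73 with an offset of 50, 418 under median scaling and 29 at a 2-fold limit. The smaller counts follow from how an offset, no background correction or a higher limit is built, and the cause of the others was not tested. Median scaling put the median of all genes at -0.13, and detection on both arrays kept 7711 of the 8378 genes. Dim probes such as Atp6v0e2, Atp6v1c2 and Car5b lie close to background, where intensity limits the ratio.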
